A study of Haliotis discus hannai with 24 samples.

Results

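The genes described here are those whose RNA was most enriched in the eyestalk of the Pacific abalone, Haliotis discus hannai, relative to its cephalic and epipodial tentacles. There were 32 such genes among the 19700 of the deposited table, of which 17233 had at least 1 count and 2978 had an eyestalk median of at least 10 CPM (the count divided by the library's total and multiplied by 1000000). They were selected on measured values: a median of at least 10 CPM over the 8 eyestalk libraries, and a log2 ratio of at least 2 between that median and the higher of the 2 tentacle medians, with 1 CPM added to both. The rule allowed up to 150 genes, so all that passed were kept. The same bounds passed 28 genes for the cephalic tentacle and 226 for the epipodial tentacle.

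Polyadenylated RNA was sequenced from 6 groups of 4 libraries: left eyestalk, right eyestalk, left cephalic tentacle, right cephalic tentacle, left epipodial tentacle and right epipodial tentacle. The labels give each library's treatment as excision of an organ, give "Aquaculture" as the genotype of every library and carry 1 batch value throughout. Age, sex and the number of animals are not given in the labels, and nothing says that libraries of a group came from separate animals, so every p-value below measures the spread between libraries, which may be technical. For the epipodial tentacle the side is that of the tissue label, whereas the sample titles use the letters of the opposite side and the treatment label of the libraries called left names a cephalic tentacle. Any left and right difference of the epipodial tentacle therefore carries an uncertain sign.

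The eyestalk of an abalone is a short muscular stalk on the head that carries the eye at its tip. The eye is a simple open cup, lined by a retina of photoreceptor and pigmented cells around a vitreous body, and its nerve runs down the stalk through connective tissue, muscle and skin. The cephalic tentacles beside it and the epipodial tentacles around the foot serve touch and chemical sense. The files pair no identifier with a gene name, so the 32 genes are given by identifier, without a name or a role, and markers of eye cells could not be used to check the eyestalk label. Tissue libraries of this kind cannot tell fewer cells of a type from less RNA per cell.

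Libraries held 1692939 to 4479096 counts in the eyestalk, 473072 to 1939936 in the cephalic tentacle and 1700095 to 2146464 in the epipodial tentacle. The number of genes with a count ranged from 3682 to 11090 in the eyestalk, from 3919 to 11197 in the cephalic tentacle and from 8876 to 10678 in the epipodial tentacle. Under 6000 genes were detected in replicates 2 and 3 of the left eyestalk, replicate 1 of the right eyestalk, replicates 1 and 2 of the left cephalic tentacle and replicates 3 and 4 of the right cephalic tentacle. In replicate 2 of the right eyestalk, which detected 8371 genes, a single member of the set held over 50% of the counts. The calls between sides and between the tentacles, the mean eyestalk share and the eyestalk side medians are given with and without these 8 libraries. Given only with them are the eyestalk against tentacle calls, the counts by unadjusted p or overlap, the cephalic shares and the tally of tentacle medians. Patterns across the 8 eyestalk libraries rest on 4 of the 8 named libraries. They are given only with single libraries left out, since 4 eyestalk libraries remain otherwise.

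The 32 genes took up very different shares of the eyestalk libraries. They held 3.56%, 23.4%, 14.6% and 1.78% of the counts in the 4 left eyestalk libraries and 44.1%, 77.8%, 1.65% and 1.88% in the 4 right ones, in replicate order. Their share lay between 0.0408% and 0.143% in the cephalic libraries and between 0.0936% and 0.241% in the epipodial ones. The mean share was 21.1% ± 27.3 in the eyestalk, 0.0687% ± 0.0325 in the cephalic tentacle and 0.152% ± 0.0583 in the epipodial tentacle (SD, n = 8 libraries each). The SD of the eyestalk share exceeded its mean, and the 4 eyestalk libraries with the highest shares were 4 of the 8 named above: without those, the mean eyestalk share was 2.22%. Replicate 2 of the right eyestalk is among the 8 only because a member held 70.8% of its counts. Part of that lower mean was thus fixed in advance.

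**Figure D1:**
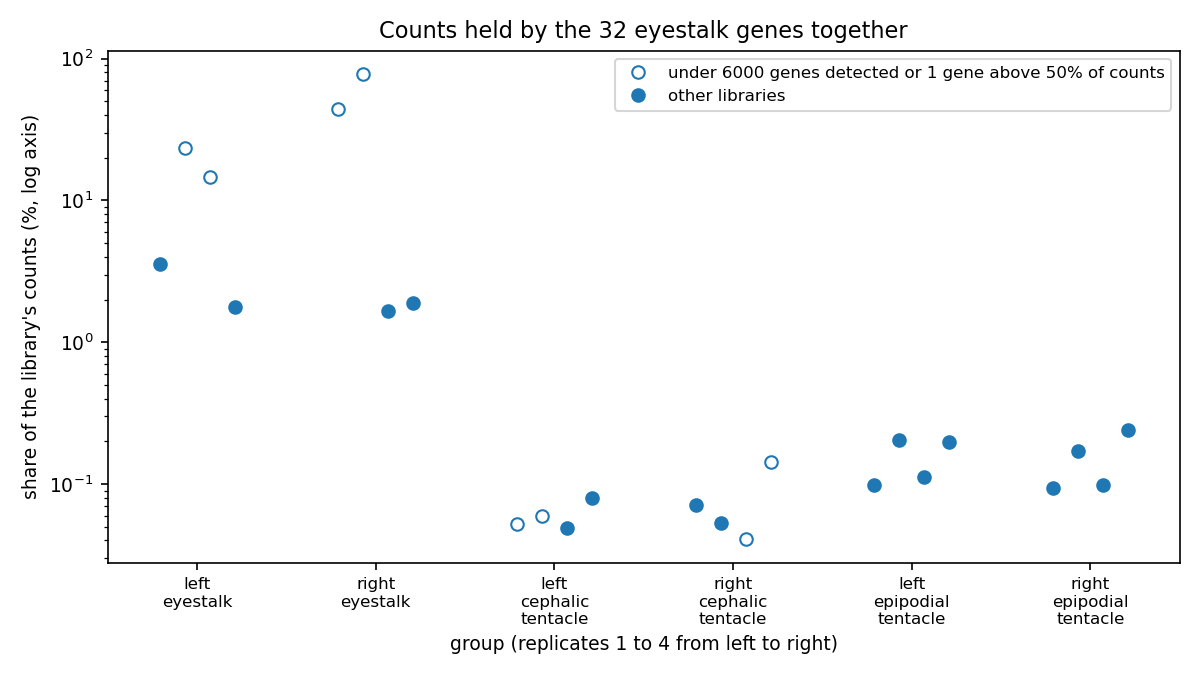
Share of each library's counts held by the 32 genes together, in percent on a log axis, for the 6 groups, with 1 point per library and replicates 1 to 4 from left to right in each group. Open circles mark the 8 libraries with under 6000 genes detected or with 1 gene above 50% of counts. Eyestalk libraries lie between 1.65% and 77.8%, and every tentacle library lies at or below 0.241%.

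A few genes made up nearly all of that share. The 5 members with the most counts held between 1.45% and 77.3% of an eyestalk library, and the other 27 together held between 0.107% and 0.517%. Those 27 held 0.00444% to 0.0256% of a cephalic library and 0.0121% to 0.0225% of an epipodial one, so the lowest eyestalk share stood above the highest tentacle share for them too. The typical member was a low or moderate transcript. The eyestalk median lay under 100 CPM for 23 members, between 100 and 1000 CPM for 4 and above 1000 CPM for 5.

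Between genes, levels were compared as the authors' FPKM, which divides by the gene's length. HDSC06460CG00010 had the highest median FPKM of all genes in the eyestalk, 112090, over a coding length of 261 bases that was recovered from its counts and FPKM. HDSC05049CG00020 ranked 11th with 23091 FPKM over 1731 bases. HDSC13144CG00010 ranked 19th with 16891 FPKM over 255 bases. Named here after their values were seen, HDSC33109CG00010 ranked 31st with 9160 FPKM over 321 bases and HDSC04127CG00020 ranked 44th with 5360 FPKM over 381 bases. With HDSC01759CG00010, which ranked 73rd at 1931 FPKM over 441 bases, 6 members stood among the 100 highest genes of the eyestalk. Of these 6, all but HDSC05049CG00020 had a coding length under 500 bases. Over all 32 members the coding length had a median of 697.5 bases and a range of 255 to 2784, and 28.1% were under 500 bases, near the 26.5% of all genes with an eyestalk median of at least 10 CPM, whose median was 840 bases.

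HDSC06460CG00010 had the largest ratio of the set, a log2 ratio of 14.84. It had 11719, 103821, 49417 and 5571 CPM in the left eyestalk libraries and 181846, 46792, 627 and 4461 CPM in the right ones. In the 16 tentacle libraries it had 4 counts in all, 2 cephalic and 2 epipodial, and no tentacle library went above 1.03 CPM. The lowest eyestalk library therefore stood far above the highest tentacle library, while the eyestalk libraries themselves spanned 8.18 log2 units.

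HDSC05049CG00020 had the second largest ratio, a log2 ratio of 11.44, and the widest spread among members with a count in every eyestalk library, 9.61 log2 units. It had 10791, 93798, 69150 and 1089 CPM in the left eyestalk and 241151, 707873, 906 and 3422 CPM in the right eyestalk. It alone held 70.8% of the counts of replicate 2 and 24.1% of those of replicate 1 of the right eyestalk. Unlike HDSC06460CG00010, it was counted in 15 of the 16 tentacle libraries. They measured 48.8, 0, 61.9 and 6.79 CPM in the left cephalic and 332, 10.96, 4.23 and 15.8 CPM in the right cephalic tentacle. The epipodial libraries held 34.5, 11.2, 4.73 and 20.2 CPM on the left and 8.58, 7.14, 8.60 and 77.1 CPM on the right. The highest tentacle value, 332 CPM, was still below the lowest eyestalk library at 906 CPM.

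The balance between these 2 dominant genes was not fixed. For each count of HDSC06460CG00010 there were 0.921, 0.903, 1.40 and 0.195 counts of HDSC05049CG00020 in the left eyestalk libraries. In the right eyestalk libraries there were 1.33, 15.1, 1.45 and 0.767. Replicate 2 of the right eyestalk stood apart by its excess of HDSC05049CG00020, and 5 of the other 7 libraries lay between 0.903 and 1.45.

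HDSC04127CG00020 had no count in any of the 16 tentacle libraries and had 2613, 9820, 1471 and 661 CPM in the left eyestalk and 7947, 16599, 97.5 and 476 CPM in the right eyestalk. The only other member without a tentacle count was HDSC02057CG00040, also named after its values were seen. It was counted in 4 of the 8 eyestalk libraries, replicates 2 and 4 of either side, with 25.4 and 37.5 CPM on the left and 27.2 and 66.0 CPM on the right. Replicates 1 and 3 of both sides were at 0. Its median of 12.7 CPM thus lies midway between 0 and the lowest counted value, a level that no library had.

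The steadiest members looked quite different. HDSC01690CG00070 spanned 2.53 log2 units over the eyestalk libraries, with 130, 65.4, 29.97 and 66.7 CPM on the left and 79.7, 21.7, 41.4 and 50.1 CPM on the right. HDSC13144CG00010 spanned 2.78 log2 units, with 4182, 4935, 4469 and 5998 CPM in the left eyestalk and 3125, 872, 4060 and 4433 CPM in the right eyestalk. It was also the member with the highest tentacle levels. The cephalic tentacle had 402, 364, 169 and 542 CPM on the left and 130, 319, 175 and 1321 CPM on the right. The epipodial tentacle had 774, 899, 922 and 1712 CPM on the left and 764, 1289, 691 and 1997 CPM on the right. Apart from replicate 2 of the right eyestalk, at 872 CPM, every eyestalk library of HDSC13144CG00010 was above every tentacle library.

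HDSC00325CG00080 had the second widest spread, 9.47 log2 units. It had 47.8, 273, 253 and 10.8 CPM in the left eyestalk and 1052, 3734, 4.28 and 35.8 CPM in the right eyestalk. In the cephalic tentacle it reached 46.5 CPM in 1 left library and 27.2 CPM in 1 right library, so the lowest eyestalk libraries overlapped the highest cephalic ones. In each epipodial library it had at most 0.588 CPM.

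**Figure D2:**
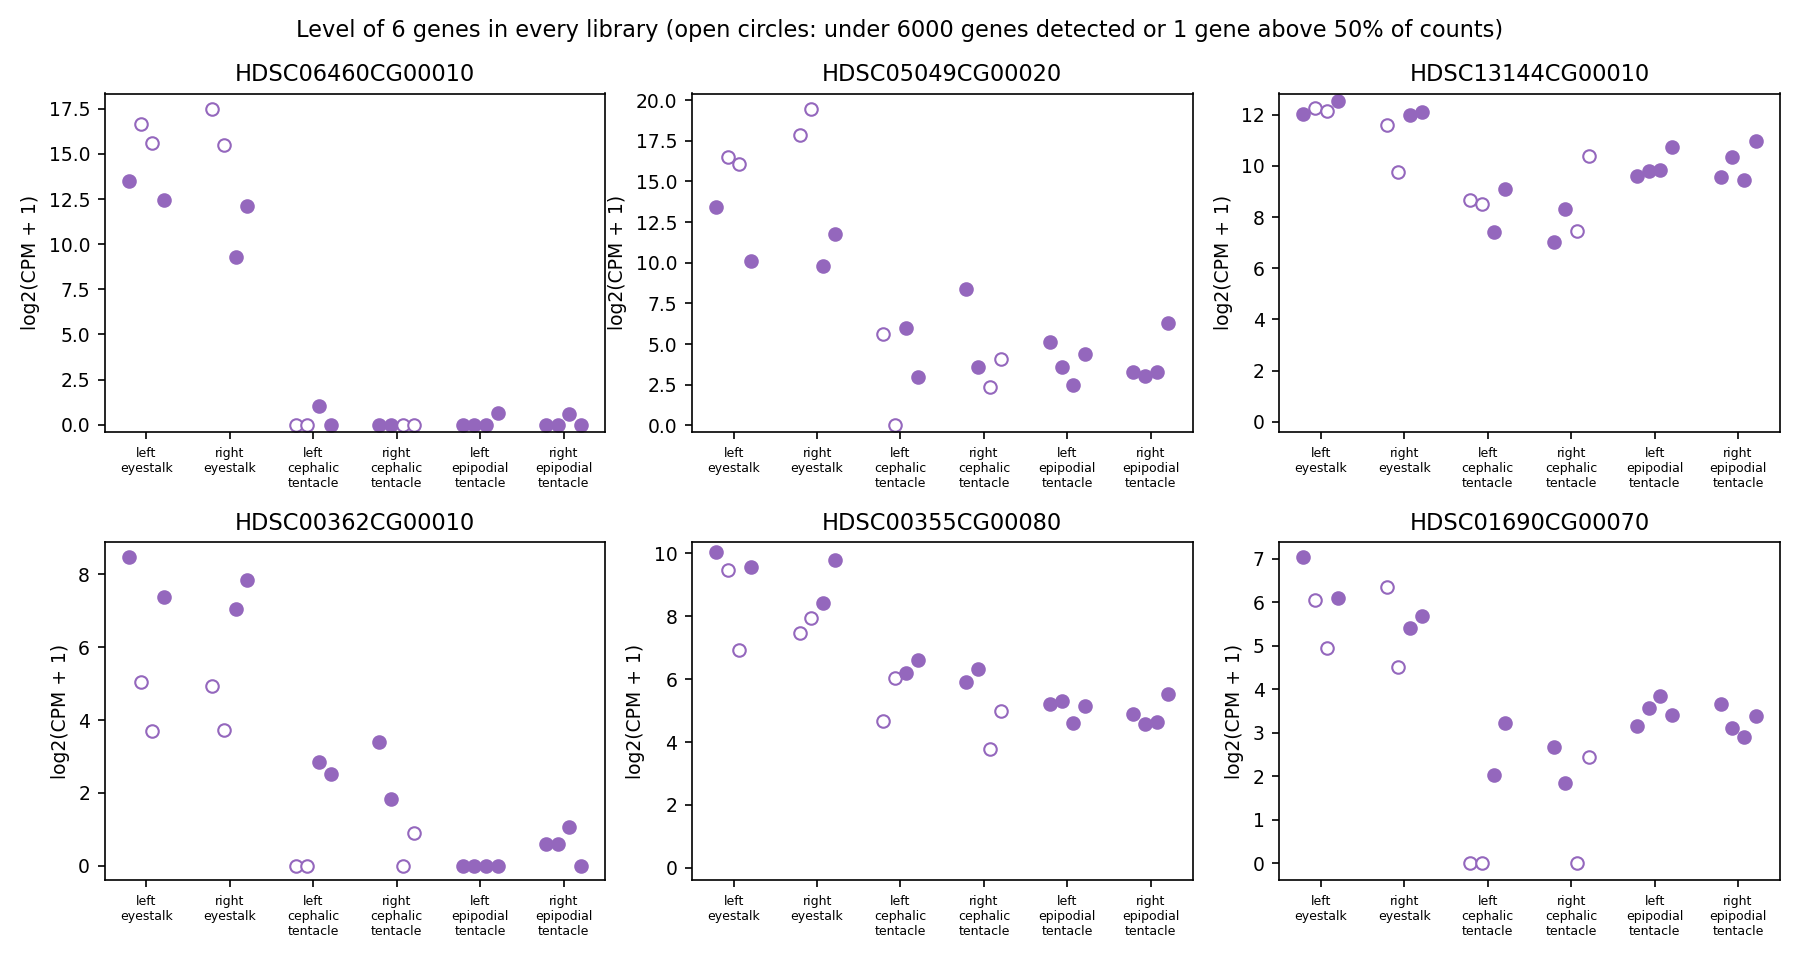
Log2(CPM + 1) of 6 members in each of the 24 libraries, by organ and side, with 1 point per library, replicates 1 to 4 from left to right and open circles for the 8 libraries named above. HDSC13144CG00010 and HDSC01690CG00070 keep within 2.78 and 2.53 log2 units in the eyestalk, whereas HDSC05049CG00020 spans 9.61.

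The separation of organs by single libraries varied across the set. All 8 eyestalk libraries lay above all 16 tentacle libraries for 8 members, a pattern held by 0.109% of the 7341 genes with enough counts for testing, which include all 32 members. Since the members were picked for a high eyestalk median, nothing is read from that count. For 29 members at least 4 of the 8 eyestalk libraries were above every tentacle library. HDSC09559CG00010 had none above, since its 38.1 CPM at most in the eyestalk lay under the 43.5 CPM of replicate 3 of the right epipodial tentacle. Over both tentacles together, 2 members had at most 3 counts, 5 had at most 10 and 16 had at most 100. The median was 0 CPM in the cephalic tentacle for 12 members and in the epipodial tentacle for 8. It was above 10 CPM in the cephalic tentacle for 5 members and in the epipodial tentacle for 5, not all of them the same.

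Detection was patchy even inside the eyestalk. A count in all 8 eyestalk libraries was found for 16 of the 32 members. Between 22 and 32 members were detected in an eyestalk library, between 6 and 27 in a cephalic library and between 21 and 26 in an epipodial library. The median member stood at 21.3 to 71.3 CPM in the eyestalk libraries, at 0 to 5.41 CPM in the cephalic and at 1.28 to 4.41 CPM in the epipodial libraries.

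At the edge of the rule, HDSC02350CG00020 was the last gene inside by its ratio, with an eyestalk median of 17.4 CPM, 3.53 CPM in the higher tentacle and a log2 ratio of 2.02. Just above it was HDSC04324CG00010, with 28.0 CPM in the eyestalk, 5.93 CPM in the higher tentacle and a log2 ratio of 2.06. The first genes left out were HDSC02685CG00030, with an eyestalk median of 73.2 CPM, a higher tentacle median of 18.2 CPM and a log2 ratio of 1.95, and HDSC04364CG00010, with an eyestalk median of 211 CPM, a higher tentacle median of 54.2 CPM and a log2 ratio of 1.94. By level, HDSC01174CG00030 was the lowest inside at 10.9 CPM and HDSC07317CG00010 was next below the bound at 9.88 CPM. These values lie close together, so the edge of the set is a matter of degree.

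In the fit across all genes, the eyestalk was called higher than the cephalic tentacle for 23 of the 32 members and for 1.35% of all genes, and higher than the epipodial tentacle for 24 members and 1.01% of all genes (edgeR's quasi-likelihood test, Benjamini-Hochberg adjusted p under 0.05). Both calls were made for 35 genes, 0.477% of those tested. Of the 35, 21 were members, which is 60% of the 35 and 65.6% of the members. The rule used these differences, so the counts describe the set and support nothing.

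A simple gauge of how a library differed from the others within the eyestalk is the number of genes it detected, which ranged from 3682 to 11090, and each member's CPM was ranked against it over the 8 eyestalk libraries. For 6 members the Spearman correlation was -0.5 or lower, that is, their CPM was higher where fewer genes were detected. For 15 it was 0.5 or higher, and 11 lay between. Of the members, 18.8% were at -0.5 or lower and 46.9% at 0.5 or higher, against 4.16% and 71.9% of all 2978 genes with an eyestalk median of at least 10 CPM. The median coefficient was 0.45 for the members and 0.74 for those 2978 genes. These are descriptions over 8 libraries that share their totals and their depth with the genes detected, and the part of depth or RNA quality in them was not tested.

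The 6 members with the reverse pattern were HDSC06460CG00010 at -0.83, HDSC00175CG00100 at -0.71, HDSC05049CG00020, HDSC00325CG00080 and HDSC04731CG00020 at -0.64 each, and HDSC04127CG00020 at -0.57. They include 3 of the 5 most counted members. Over the same 8 libraries the 6 followed one another closely, with pairwise Spearman coefficients between 0.76 and 1.00 and a median of 0.93. HDSC00175CG00100 shows the shape at a moderate level, with 9.21, 99.9, 67.8 and 14.4 CPM in the left eyestalk and 248, 364, 3.33 and 7.16 CPM in the right eyestalk. As for HDSC05049CG00020, its high libraries were replicates 2 and 3 on the left and 1 and 2 on the right.

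The 15 members of the opposite pattern had coefficients from 0.57 to 0.98, the highest for HDSC02456CG00020. It had 200, 0, 6.31 and 122 CPM in the left eyestalk and 5.91, 33.5, 75.6 and 206 CPM in the right eyestalk, so the libraries that were high for HDSC00175CG00100 were its low ones. Pairwise coefficients within the 15 ranged from 0 to 1.00 with a median of 0.76. Between the 15 and the 6 they ranged from -0.95 to -0.26 with a median of -0.65. Both groups were formed by their rank correlation with 1 measure over these same libraries, which largely fixes likeness within a group and opposition between groups, so these coefficients are no support for the split. Over all 496 pairs of members, 20.6% were at 0.7 or higher and 9.27% at -0.7 or lower.

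**Figure D3:**
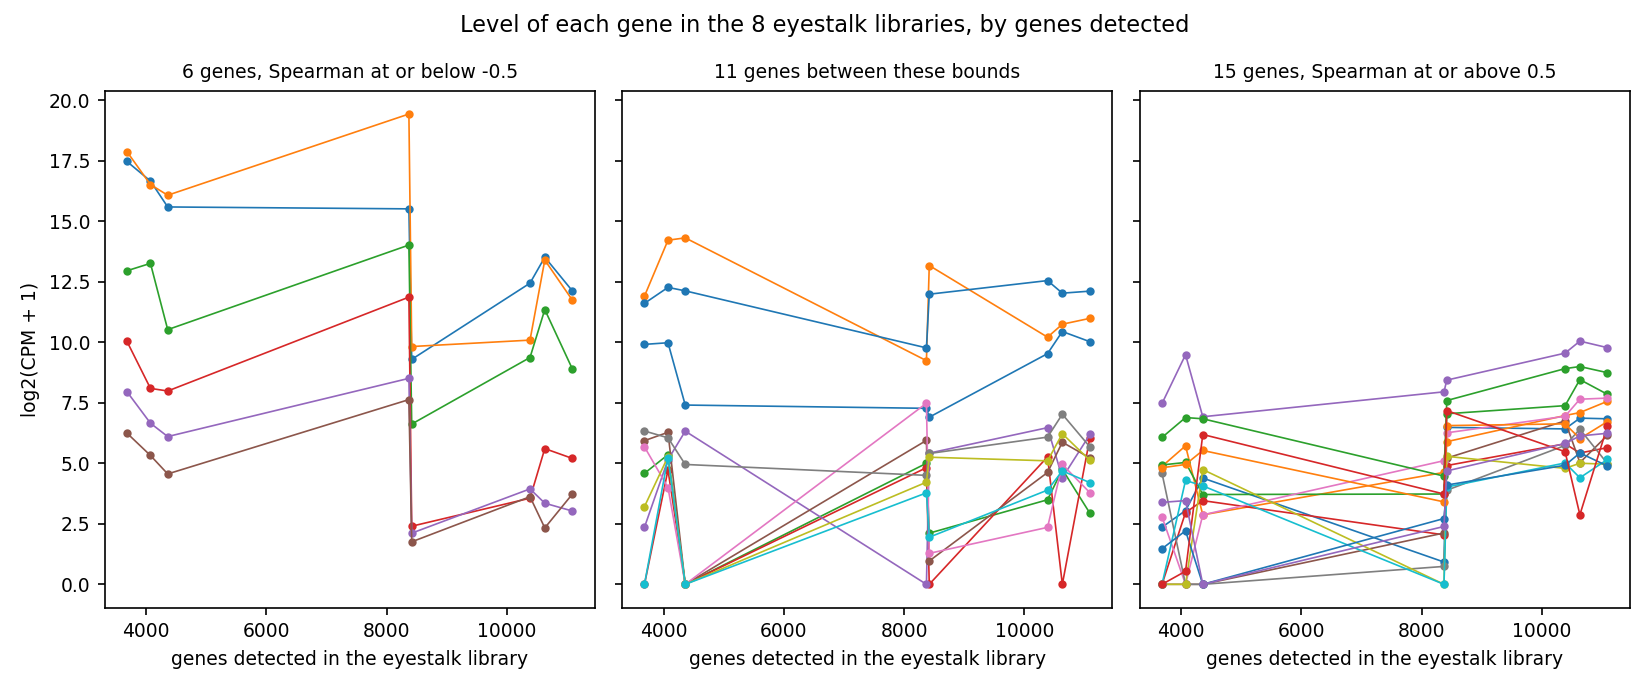
Log2(CPM + 1) of each member (y axis) in the 8 eyestalk libraries, placed by the number of genes detected in the library (x axis), with 1 line per member and a panel each for the 6, the 11 and the 15 members. For 5 of the 6 members of the first panel the 4 libraries to the left are above the 4 to the right, HDSC04127CG00020 being the exception, and the 15 members tend to be higher to the right.

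CPM values share a total, and genes that fill a library push the others down. With the total counted without the 5 most counted members, the 6 remained at -0.5 or lower and 14 of the 15 remained at 0.5 or higher. HDSC06460CG00010, HDSC05049CG00020 and HDSC04127CG00020 belong both to these 5 and to the 6, and the number of genes detected was left unchanged. The part of the shared total in the split was therefore not tested. On that smaller total the other 27 members held 0.472%, 0.358%, 0.125% and 0.333% of the left eyestalk libraries and 0.523%, 2.28%, 0.158% and 0.401% of the right ones. Leaving out each eyestalk library in turn kept 5 or 6 of the 6 and 14 or 15 of the 15.

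**Figure D4:**
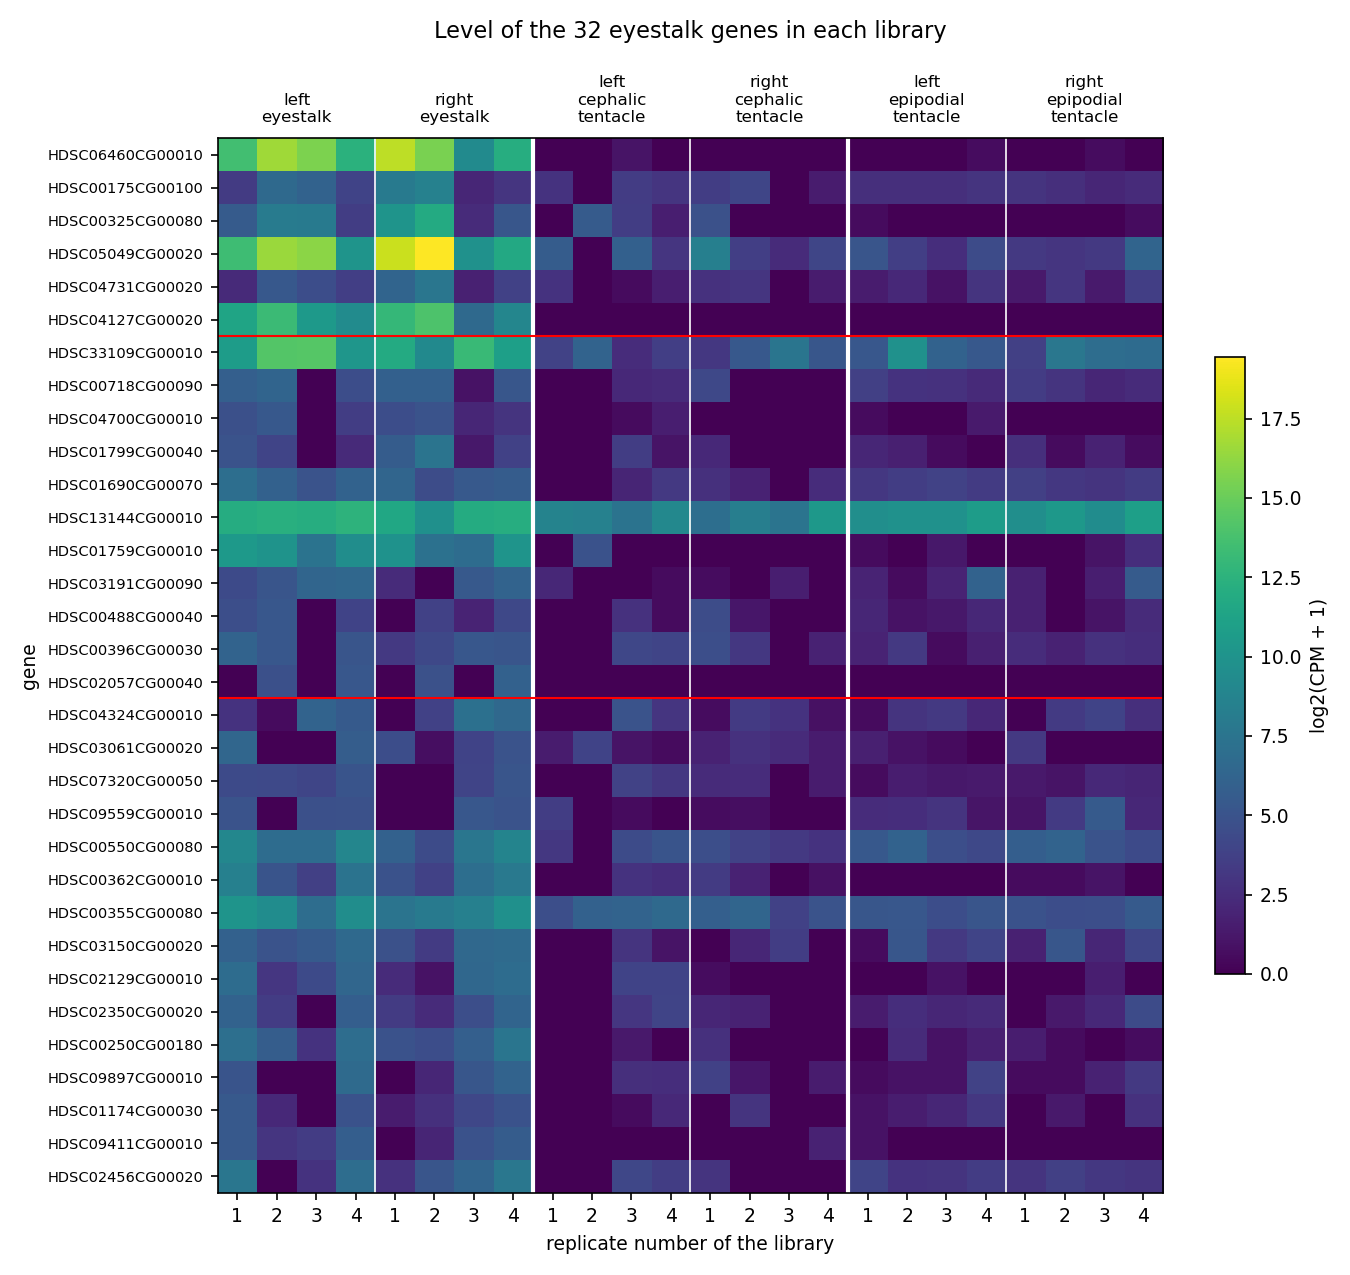
Log2(CPM + 1) of the 32 members, in rows, across the 24 libraries, in columns by group and replicate, with red lines between the 6 members that ran against the number of genes detected (top), the 11 between the bounds and the 15 that ran with it (bottom). For 5 of the 6, all but HDSC04127CG00020, replicates 2 and 3 of the left and 1 and 2 of the right eyestalk are the highest 4, where many of the 15 are low or at 0.

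The series' design text names the comparison of left with right, and the rule, which pools both sides, did not use it. No member passed the test between the left and the right eyestalk: 0 of 32 had an adjusted p under 0.05 by edgeR, as did 0 of all 7341 genes tested (0%), and DESeq2 and limma called 0 members too. At an unadjusted p under 0.05 there were 3 members, all lower on the left, and 2.45% of all genes. The libraries of the left and right eyestalk overlapped for all 32 members, and did not overlap for 0.45% of all genes. The left CPM median was higher for 21 members (65.6%) and lower for 11, against a higher left median for 72.5% of all genes tested. In the TMM-scaled fit the tally turned, with 13 members (40.6%) fitted higher on the left and 43.3% of all genes. The fitted log2 difference, left over right, had a median of -0.15 over the members and -0.12 over all genes, and its size had a median of 0.58 over the members and 0.53 over all genes.

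HDSC01799CG00040 had the lowest unadjusted p. It had 29.9, 14.99, 0 and 4.11 CPM in the left eyestalk and 50.2, 178, 1.43 and 12.8 CPM in the right eyestalk. The log2 fold change was -4.00 (SE 1.45, edgeR unadjusted p = 0.0101, adjusted p = 1), and replicates 1 and 2 on the right were above all 4 left libraries. HDSC04731CG00020 had 4.03, 39.1, 22.6 and 11.3 CPM in the left eyestalk and 75.0, 197, 2.38 and 12.3 CPM in the right eyestalk. Its log2 fold change was -2.91 (SE 1.29, edgeR unadjusted p = 0.0323, adjusted p = 1). The third was HDSC00325CG00080, whose values are given above, at -4.05 (SE 1.84, edgeR unadjusted p = 0.0407, adjusted p = 1). In all 3 the high values came from replicates 1 and 2 of the right eyestalk. Without the 8 libraries named at the start, the log2 fold change was 1.12 for HDSC01799CG00040, 0.12 for HDSC04731CG00020 and 0.45 for HDSC00325CG00080, so the sign turned in all 3 and none passed the threshold. Without replicate 2 of the right eyestalk alone it was -1.71 for HDSC01799CG00040, -0.95 for HDSC04731CG00020 and -1.68 for HDSC00325CG00080.

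A missed threshold does not show equal levels, and the intervals were wide. The 95% interval of the left and right difference lay within a 4-fold change either way for 3 of the 32 members, and for 13.8% of all genes. Within an 8-fold change it lay for 11 members and for 44.2% of all genes. Of the 6 members that ran against the number of genes detected, 1 had a higher left CPM median with all libraries, and all 6 had one without the 8 libraries. Among all genes tested that ran the same way at an eyestalk median of at least 10 CPM, the shares were 79.0% and 61.3%. Over all 32 members it was 21 (65.6%) with all libraries and 25 (78.1%) without the 8, against 72.5% and 63.5% of all genes tested. Without the 8, the medians rest on replicates 1 and 4 of the left and 3 and 4 of the right eyestalk alone. The left libraries detected 10631, 4073, 4360 and 10385 genes and the right ones 3682, 8371, 8418 and 11090, and the part of this in the side medians was not tested.

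Many members peaked at the same replicate number in both eyestalks. Among the 32 members, 17 (53.1%) had their highest left and highest right eyestalk library at the same number, against 29.6% of all genes tested with 1 highest library per side. HDSC02057CG00040, seen in the same numbers on both sides, and HDSC05049CG00020, highest in replicate 2 on both sides, are examples. In the cephalic tentacle the share was 3 of 26 members (11.5%) against 17.4% of all genes, and in the epipodial tentacle 15 of 27 (55.6%) against 57.2%. Apart from HDSC06460CG00010, the members that ran against the number of genes detected were all highest in replicate 2 of both eyestalks. Members that follow one another are not separate observations, so nothing is read from the count of 17. Over all genes, left and right eyestalk libraries of a number were correlated at -0.13, 0.29, 0.25 and 0.61, which did not pass the bound for pairing. The sources do not say whether equal numbers mark the same animal.

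In the tentacles the members are low, and most entered these tests only through their eyestalk counts: with the filter on low counts applied to the organ alone, 6 of the 32 remained for the cephalic sides, 11 for the epipodial sides and 14 for both tentacles together. HDSC04127CG00020 and HDSC02057CG00040 have no tentacle count at all, so nothing is tested for them there. Between the left and right cephalic tentacle 0 of the 32 members and 0% of all genes passed by edgeR, as did 0 of the 6 and 0% of genes in the fit of that organ alone. DESeq2 and limma called 0 members too. No member's sides were free of overlap, against 0.191% of all genes. Unadjusted p-values under 0.05 were found for 2 members and 1.36% of all genes. These were HDSC02129CG00010, with 54 counts on the left and 1 on the right, and HDSC01759CG00010, with 14 counts on the left, all in replicate 2, and 0 on the right. Neither is among the 6, so both entered the test only through their eyestalk counts. Replicate 2 of the left cephalic tentacle had 494495 counts and 3919 genes detected and is among the libraries of low detection. Between the left and right epipodial tentacle 0 of the 32 members and 0% of all genes passed by edgeR. In the fit of that organ alone 0 of the 11 and 0% of genes passed, and DESeq2 and limma called 0 members. These fits did not pair libraries by number, although left and right epipodial libraries of a number were correlated at 0.68 to 0.77. The spread between numbers thus counted as error, which limits what these fits could call. With the replicate block no member was called either. Again no member's sides were free of overlap, against 1.28% of all genes. At an unadjusted p under 0.05 there was 1 member, HDSC00362CG00010, and 0.0545% of all genes. It had 0 counts on the left and 4 on the right, while HDSC04700CG00010, next by p, had 4 on the left and 0 on the right. Neither gene is among the 11. Differences of 4 counts are at the limit of what this depth can show.

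Between the 2 tentacles, 1 of the 32 members passed the test, higher in the cephalic tentacle, as did 2.23% of all genes in either direction and 0.749% in that direction. HDSC00362CG00010 had 44 counts over the 8 cephalic libraries and 4 over the 8 epipodial libraries. Its levels were 0, 0, 6.19 and 4.70 CPM in the left cephalic and 9.62, 2.58, 0 and 0.880 CPM in the right cephalic tentacle. The epipodial tentacle had 0 in all 4 left libraries and 0.505, 0.510, 1.07 and 0 CPM on the right. The fitted log2 difference, cephalic over epipodial, was 4.04 with an SE of 0.89, and the adjusted p was 0.0105 by edgeR. The groups overlap, since 3 cephalic libraries were at 0, and those 3 were among the 4 cephalic libraries with few genes detected. Without the 8 libraries the difference was 4.87, at an adjusted p of 0.000665 by edgeR. With counts scaled by library totals alone the adjusted p was 0.0617, and by limma on log2(FPKM + 1) it was 0.383, so the call depends on the scaling and the test. It depends on the filter as well: among the tentacle libraries alone the gene has too few counts to be tested, and there 0 of the 14 members that remained were called, against 3.66% of genes. In the eyestalk the same gene had 351, 31.8, 12.1 and 166 CPM on the left and 29.5, 12.3, 131 and 230 CPM on the right, above every tentacle library.

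Between the tentacles, unadjusted p-values under 0.05 were found for 6 members and 11.1% of all genes. Of these 6, HDSC00325CG00080, HDSC00362CG00010 and HDSC03191CG00090 did not pass the filter on low counts applied to the tentacles alone. They entered the test only through their eyestalk counts. The cephalic and epipodial libraries overlapped for all 32 members, and did not overlap for 1.87% of all genes. For members at 0 CPM in libraries of both tentacles, overlap was fixed in advance. HDSC04127CG00020 and HDSC02057CG00040, without any tentacle count, are among them. The members' figure therefore cannot be set against that of all genes. The cephalic median was higher for 9 members, lower for 17 and equal for 6. In the cephalic libraries with under 6000 genes detected the median member was at 0 CPM. In the other cephalic libraries it was at 1.93 to 5.41 CPM, and in the epipodial ones at 1.28 to 4.41 CPM. In the TMM-scaled fit 15 members were higher in the cephalic tentacle. The fitted log2 difference had a median of 0 over the members and -0.19 over all genes. The part of low detection in the tally of medians was not tested.

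With the replicate number as a block over all 24 libraries, 254 genes (3.46%) were called in place of 164. They included 1 member, again HDSC00362CG00010, whose log2 difference was then 4.03 with an adjusted p of 0.00700 by edgeR. The means of both sides of the cephalic and epipodial tentacle were correlated by number. This block also tied the eyestalk sides and the cephalic sides by number, and those did not pass the check given below. Without the 8 libraries, 3 members were called, all higher in the cephalic tentacle, where 2.47% of all genes were called in either direction and 0.96% in that one. Besides HDSC00362CG00010 these were HDSC00355CG00080, with a log2 difference of 1.43 and an adjusted p of 0.0359 by edgeR, and HDSC00325CG00080, which had 98 counts over all cephalic and 2 over all epipodial libraries (edgeR adjusted p = 0.0133, and 0.122 with all libraries). With all libraries HDSC00325CG00080 was also called by DESeq2 (adjusted p = 0.0125) and by edgeR with library totals alone (adjusted p = 0.0436), and it is not among the 14. HDSC00355CG00080 is a member with clear levels in both tentacles. It had 24.4, 64.7, 71.7 and 97.2 CPM in the left cephalic and 59.3, 79.3, 12.7 and 30.8 CPM in the right cephalic tentacle. The epipodial libraries had 35.9, 38.4, 23.2 and 34.2 CPM on the left and 28.8, 23.0, 24.2 and 44.7 CPM on the right. In 5 of the 8 cephalic libraries its level was above all 8 epipodial libraries.

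**Figure D5:**
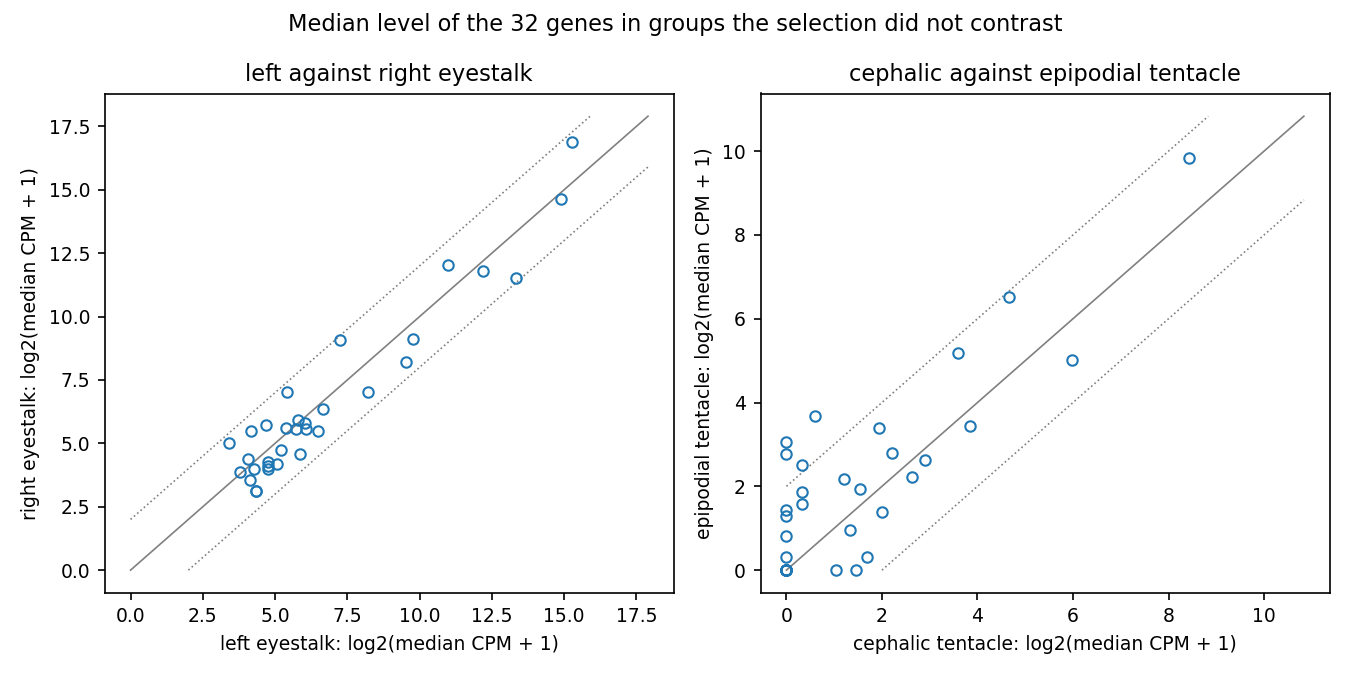
Log2(median CPM + 1) of the 32 members, left (x axis) against right (y axis) eyestalk in one panel and cephalic (x axis) against epipodial (y axis) tentacle in the other, with 1 point per member, a line of equality and dotted lines at a 4-fold difference. Members lie on both sides of the line in either panel: 21 have a higher left eyestalk median in CPM (13 are fitted higher on the left after TMM scaling) and 17 a lower cephalic than epipodial median (15 are fitted higher in the cephalic tentacle after TMM scaling). The cephalic medians include the libraries with under 6000 genes detected.

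A few members were patterned by replicate number in the epipodial tentacle, where left and right libraries of a number resembled each other across all genes. HDSC33109CG00010 had 38.7, 911, 69.0 and 40.4 CPM on the left and 12.1, 205, 119 and 111 CPM on the right, with replicate 2 highest on both sides. HDSC03191CG00090 had 67.9 CPM on the left and 47.6 CPM on the right in replicate 4, and at most 2.84 CPM in the other 6 epipodial libraries. HDSC03150CG00020 had 35.1 CPM on the left and 35.7 CPM on the right in replicate 2, with at most 15.9 CPM in the other 6. These 3 were named after their values were seen. Their tentacle medians, on which the rule rests, do not show these single high numbers.

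The edge of the set moved with the libraries used. Dropping 1 library at a time from all 24 kept 24 to 32 of the members, and 20 members were kept each time. From the left libraries alone 31 of the 32 were chosen, from the right libraries alone 27, and 26 were chosen by each side on its own. Without the 8 libraries, 24 of the 32 were kept among 124 genes past the bounds. The 8 lost were HDSC00175CG00100, HDSC00325CG00080, HDSC00396CG00030, HDSC00488CG00040, HDSC01799CG00040, HDSC04700CG00010, HDSC04731CG00020 and HDSC07320CG00050. Among these 8 are 3 of the 6 members that ran against the number of genes detected. HDSC06460CG00010, HDSC05049CG00020 and HDSC04127CG00020, the other 3, were kept.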

How the data were processed

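Polyadenylated RNA of 24 libraries was, per the labels' protocols, extracted with TRIzol and prepared using a VAHTS Universal V6 kit. Of tools, fastp, HISAT2 and HTSeq appear in the submitters' processing notes. Not given in the sources used here were the genome build, the annotation and the use of strand, so reads of near-identical or overlapping genes may be shared or misassigned. The authors deposited 1 table with raw counts per gene and, beside them, FPKM values. Per the file headers the columns carry the sample titles, and all of them were mapped by title.

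The counts were used to choose the 32 members (CPM medians, bounds as given above) and for all tests. The members and all lists were chosen with earlier results of these data known. FPKM was used for levels between genes, and together with the counts it gave each gene's coding length, whole within 0.001 for 100% of genes with a count. Genes kept by edgeR's filter on low counts over the 6 groups numbered 7341. The test was that of edgeR 4.0.16 under R 4.3.3 (quasi-likelihood, TMM scaling, 6 group means over all 24 libraries, 18 residual degrees of freedom, Benjamini-Hochberg adjustment over all genes tested, threshold 0.05), and members were read from that fit. The scripts were tested on simulated data. The alternatives were other scalings, no filter, DESeq2 1.42.0, limma 3.58.1 on log2(FPKM + 1) and log2(FPKM + 0.1), a replicate block, fits of the compared organs alone, leaving out each library, leaving out 8 libraries and other bounds of the rule. Named members are those with the largest ratio, the highest FPKM, the smallest and largest eyestalk spread, the edges of the rule and the lowest p of each tested contrast. All other members given by name were named after their values were seen. HDSC00175CG00100, HDSC02456CG00020, HDSC09559CG00010 and HDSC00355CG00080 are among these. Python 3.11.15 with pandas 2.3.3, numpy 2.4.6 and matplotlib 3.10.9 was used for descriptions and figures.

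Whether equal replicate numbers pair libraries was checked by the correlation of their deviations from the group means, with 0.1 as the bound for every pair. Left and right epipodial tentacles passed, with 0.77, 0.74, 0.68 and 0.77 for numbers 1 to 4. The means of both sides of the cephalic and epipodial tentacle passed, with 0.51, 0.43, 0.36 and 0.55. The labels themselves give no meaning to the numbers. No identifier could be matched to lists of eye genes or of markers, which were not tested. At these totals of counts, 1 count equals 0.223 to 2.11 CPM, and differences among members at that level rest on counting error.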

Additional observations from a re-analysis of the deposited data

Results flagged for a closer look

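Among 79 groups of 4 libraries examined for 13 named members and the members' share of counts, 12 held a library that stood apart from the others by Dixon's criterion. All 12 were tentacle groups, and in each the library was high. HDSC05049CG00020 had 77.1 CPM in replicate 4 of the right epipodial tentacle, where the other 3 libraries had 7.14 to 8.60 CPM. In the remaining 11 groups the other libraries were all at 0, where any count at all stands apart. The rate of about 1 in 20 groups that chance gives therefore does not apply to them, and nothing is read from their number. HDSC01759CG00010 had 28.3 CPM in replicate 2 of the left cephalic tentacle, from 14 counts. HDSC00325CG00080 had 27.2 CPM in replicate 1 of the right cephalic tentacle, from 51 counts, and HDSC01799CG00040 had 3.74 CPM in the same library, from 7 counts.

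The other flags rest on 1 to 4 counts each. HDSC02129CG00010 had 2.15 CPM in replicate 3 of the right epipodial tentacle, 0.945 CPM in replicate 3 of the left epipodial tentacle and 0.534 CPM in replicate 1 of the right cephalic tentacle. HDSC06460CG00010 had 1.03 CPM in replicate 3 of the left cephalic tentacle, 0.561 CPM in replicate 4 of the left epipodial tentacle and 0.537 CPM in replicate 3 of the right epipodial tentacle. HDSC00325CG00080 had 0.588 CPM in replicate 4 of the right epipodial tentacle and 0.466 CPM in replicate 1 of the left epipodial tentacle.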

How the results depend on the processing

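Of 351 alternative values, 322 kept their direction, side of the threshold or size, 22 moved, 4 lost their call and 3 turned their sign. No member was called between left and right of any organ under any alternative run. Without the 8 libraries that detected under 6000 genes or held 1 gene above 50% of counts, the left and right eyestalk log2 fold changes turned to 1.12 for HDSC01799CG00040, 0.12 for HDSC04731CG00020 and 0.45 for HDSC00325CG00080. Over all genes, 1 gene was called between the cephalic sides with no filter on low counts. Between the epipodial sides 1 gene was called by DESeq2, by limma on log2(FPKM + 1) with no filter and by the replicate block with only the organ compared. Between the cephalic and epipodial tentacles 164 genes were called, against 324 with no filter, 310 by DESeq2, 254 with the replicate block, 309 with the block and only these organs, and 117 to 184 with 1 library left out. Members called there numbered 2 with no filter, 3 by DESeq2, 3 without the 8 libraries and 0 with only these organs, with or without the block, where the filter on low counts kept 14 members. The 324 genes called with no filter were among 17233 with a count, and the 310 of DESeq2 among 7341. Without the 8 libraries 2.47% of all genes were called, and 3.66% with only these organs and no block. Nothing is read from the counts of members. HDSC00362CG00010 lost its call with library totals alone (log2 fold change 4.05) and by limma (1.32 at a pseudocount of 1, with or without the filter, and 2.32 at 0.1). DESeq2 and the fit with no filter called HDSC03191CG00090 lower in the cephalic tentacle (adjusted p = 0.0197 by DESeq2 and 0.00539 by edgeR), and DESeq2 also called HDSC00325CG00080. Neither gene is among the 14. HDSC03191CG00090 had 7 cephalic and 224 epipodial counts, of which replicate 4 held 121 on the left and 81 on the right. Limma instead called HDSC13144CG00010 lower in the cephalic tentacle (-1.69 at a pseudocount of 1, limma adjusted p = 0.0204). The replicate block changed no other call. The eyestalk sides, with correlations of -0.13, 0.29, 0.25 and 0.61, and the cephalic sides, with -0.24, 0.05, 0.13 and 0.17, did not pass the check for pairing by number. The block over all 24 libraries tied them by number all the same.

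The number of genes past the rule's bounds was 18 with a constant of 5 CPM (18 members kept), 21 with a minimum of 20 CPM (21 kept), 49 with means in place of medians, 63 from the left libraries alone, 53 with totals counted without the 5 most counted members, and 124 without the 8 libraries. Divided by TMM-scaled library sizes, the members' counts averaged 53.6% in the eyestalk, against 21.1% of library totals. The scaled value is no share of a whole, since it reached 268% in replicate 2 of the right eyestalk. The cause was not tested for any of these. Between 473072 and 1939936 counts in the cephalic libraries limit what can be seen of members at a few CPM there, and the choice of totals after seeing the data applies to the count without the 5 members and to the block with only the organs compared.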
